A study of Mus musculus with 20 samples.

Results

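Liver tumours of mice with a conditional Apc knockout were compared with non-tumour liver of such mice, to find the expression changes that carcinomas and adenomas had in common. All 20 arrays of the series entered, 10 of tumours and 10 of non-tumour liver, in 4 groups of 5 taken from the sample titles. The carcinoma group came from mice on standard chow, and the adenoma group from mice on a diet with 0.05% phenobarbital. The untreated liver group, which carries H2O in its name while the protocol gives standard chow, was set against the carcinomas, and the phenobarbital liver group against the adenomas. Every mouse was a male C57BL/6 animal with the conditional knockout allele and received 0.75 mg of tamoxifen once by intraperitoneal injection at 6 weeks of age. The diets began 1 week later and lasted 9 months. The design text of the series names an initiating dose of DEN (diethylnitrosamine) instead of tamoxifen, and which of them was given was not settled.

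Non-tumour liver carries the knockout allele and received the same injection, so no group is wild-type liver, and the Cre driver and the deleted part of Apc are not given in the sources used here. Tumour type and diet changed together, so a difference between carcinomas and adenomas cannot be told apart from one between the diets. Nothing in the labels says which samples came from separate mice, so each p-value measures only the spread between these samples. In pieces of tissue, fewer cells of a type and less RNA per cell cannot be told apart.

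Apc is a scaffold of the complex that marks beta-catenin for destruction, and beta-catenin that escapes it enters the nucleus and, with TCF/LEF factors, switches on Wnt target genes. Several of those targets, such as Axin2, Nkd1 and Notum, encode brakes on the same pathway. In normal liver, Wnt signals reach hepatocytes around the central vein, which make glutamine synthetase, while periportal hepatocytes carry most of the urea cycle and of gluconeogenesis. Phenobarbital acts through the nuclear receptor CAR and promotes liver tumours in mice.

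Values are log2 expression levels of probe sets, so a difference of 1 is a 2-fold change, and each gene is represented by its brightest probe set. A tumour effect is the mean of 5 tumour arrays minus the mean of the 5 arrays of its own liver group, and the average effect weights the carcinoma and the adenoma effect equally. A change is called shared when limma gave an adjusted p under 0.05 for the average, the carcinoma and the adenoma effect, all in 1 direction. A pair of effects after a gene gives that of carcinomas and then that of adenomas. SE is the standard error in that fit and SD the spread between arrays.

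The targeted gene was higher, not lower, in the tumours. Apc read 10.60, 10.59, 10.53, 10.97 and 10.73 in carcinomas and 8.96, 9.25, 9.09, 9.21 and 8.79 in adenomas. Untreated livers read 8.80, 8.83, 8.94, 8.97 and 8.64, and phenobarbital livers 8.71, 8.56, 8.43, 8.57 and 8.43. The effect was 1.85 in carcinomas and 0.52 in adenomas (SE 0.11 each, limma adjusted p = 5.8e-12 and 0.0013). The adenoma call rested on 1 of 4 probe sets, and with their mean it was lost (0.15, adjusted p = 0.22). Since the position of the probes relative to the deletion is not known, these values check nothing about the knockout.

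The 4 genes that mark the comparison separated tumours from liver without overlap. They were chosen to mark it, so their separation is no independent support for it. Over all genes, 8.18% separated in this way in either direction. Axin2, a Wnt target that restrains the pathway, read 11.83, 11.88, 11.93, 12.49 and 11.96 in carcinomas and 10.06, 8.66, 9.38, 8.21 and 9.61 in adenomas, against 7.10, 7.19, 6.65, 7.09 and 7.40 in untreated livers and 6.97, 6.73, 6.86, 6.61 and 6.78 in phenobarbital livers. Mki67, a marker of dividing cells, read 9.02, 9.09, 10.93, 8.84 and 9.37 in carcinomas and 8.82, 8.48, 9.27, 7.62 and 8.66 in adenomas, against 5.04, 5.37, 6.98, 6.86 and 5.38 in untreated livers and 5.69, 5.56, 6.27, 5.23 and 5.47 in phenobarbital livers. Axin2 averaged 3.66 higher in tumours (SE 0.18, limma adjusted p = 9.9e-13) and Mki67 3.22 higher (SE 0.29, adjusted p = 1.1e-08). Another probe set of Axin2 had effects of 1.09 in carcinomas and 0.19 in adenomas, the latter without a call (limma adjusted p = 0.49). Untreated arrays 3 and 4 were the highest livers for Mki67 and stood apart in other genes too, so list counts that change without them are given both ways. Cyp2f2, a P450 of periportal hepatocytes, read 4.26, 4.35, 5.28, 5.02 and 4.04 in carcinomas and 5.43, 7.34, 7.21, 7.99 and 9.67 in adenomas, while the 10 livers lay between 13.26 and 13.80. Hamp, the gene of the iron hormone hepcidin, read 5.15, 3.67, 5.93, 8.83 and 3.45 in carcinomas and 6.19, 6.48, 9.69, 8.32 and 7.92 in adenomas, while the livers lay between 12.18 and 13.97. The average effect was -7.42 for Cyp2f2 (SE 0.33, 172-fold lower, adjusted p = 3.9e-13) and -6.67 for Hamp (SE 0.54, 102-fold lower, adjusted p = 1.8e-09).

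**Figure D1:**
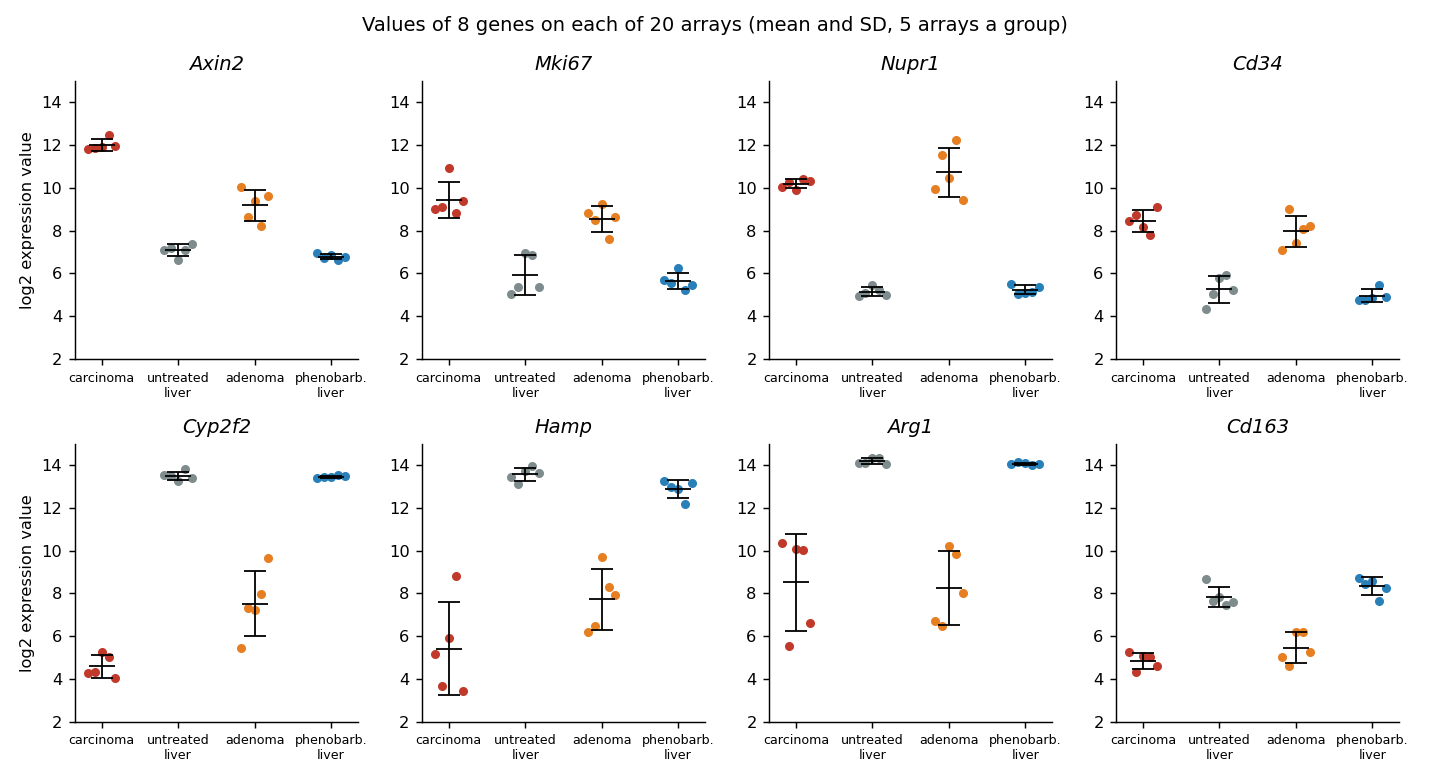
Log2 expression values (vertical axis) of 8 genes on each of 20 arrays, with 1 point per array and the mean and SD of each group of 5; each tumour type stands left of its own liver group. In all 8 panels every tumour array lies on 1 side of every liver array, higher for Axin2, Mki67, Nupr1 and Cd34 and lower for Cyp2f2, Hamp, Arg1 and Cd163.

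Most genes called on average were not shared. Of 18193 genes, 11775 (64.7%) passed the test for the average effect, 5530 (30.4%) higher and 6245 (34.3%) lower in tumours. Carcinomas alone gave 12488 calls (68.6%), 31.3% of all genes higher and 37.3% lower, and adenomas 4338 (23.8%), 13.1% higher and 10.8% lower. Only 2893 genes (15.9%) were shared, 1541 rises (8.47%) and 1352 falls (7.43%), and together made up 24.6% of the average calls. Which direction was the more frequent turned with the processing, since 1243 of 2712 shared genes were rises after quantile normalization and 1246 of 2726 with the mean of a gene's probe sets. In 7697 genes (65.4% of the average calls) the carcinoma effect passed in that direction and the adenoma effect did not, in 672 the reverse held, and in 513 neither passed. Opposite directions were called in the tumour types in 561 of the 18193 genes (3.08%), of which 209 also had an average call and are among those just counted.

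Shared changes made up 66.7% of the adenoma calls and 23.2% of the carcinoma calls. Their median effect was 1.24 in carcinomas and 0.70 in adenomas for the rises, and -1.15 in carcinomas and -0.64 in adenomas for the falls. Over all genes the medians were -0.12 and -0.03. The size differed between the tumour types (limma adjusted p under 0.05 for the difference of the effects) in 1365 shared genes, of which 1310 changed more in carcinomas and 55 more in adenomas. Over all genes such a difference was called in 46.1%. Changes of at least 2-fold in both types were found in 418 rises (2.3% of all genes) and 342 falls (1.88%). Across the 18193 genes, the carcinoma and adenoma effects, which have separate liver groups but were normalised together, had a Pearson correlation of 0.44, given as a description.

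Genes that fell were bright in liver, which follows in part from the selection, since a dim gene has little room to fall. The median level in non-tumour liver was 8.52 for shared falls and 7.56 for shared rises, against 6.54 over all genes, and in tumours the medians were 6.97 for shared falls and 8.80 for shared rises, against 6.79 over all genes. In 763 of the shared rises all 10 tumour arrays lay above all 10 liver arrays, and in 614 of the shared falls below. Over all genes such a separation was found in 1488 (8.18%), with the tumours above in 801 (4.4%) and below in 687 (3.78%). Of 3299 further probe sets that 1677 of the shared genes had, 1059 (32.1%) were shared in the same direction and 26, in 25 genes, in the opposite one. In 2197 of them both effects had the sign of the representative probe set.

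**Figure D2:**
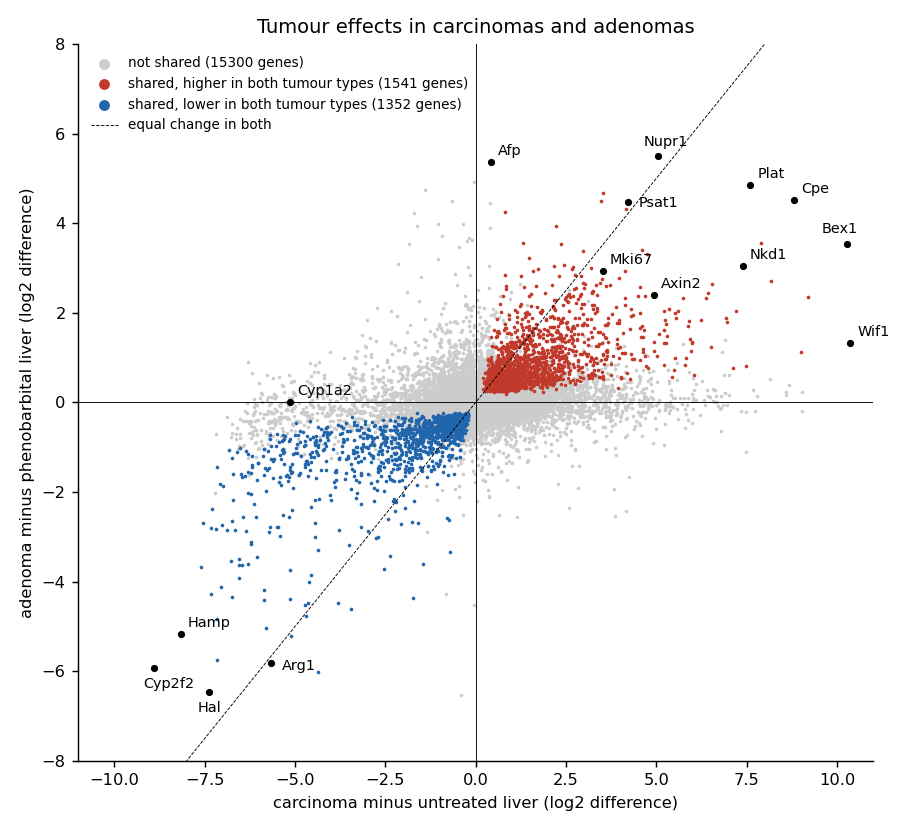
Carcinoma minus untreated liver (horizontal) against adenoma minus phenobarbital liver (vertical), both as log2 differences, with 1 point per gene for 18193 genes; red and blue points are the 1541 shared rises and 1352 shared falls, black points are named genes and the dashed line marks equal change. Nupr1, Psat1 and Arg1 lie near the line, Cpe, Bex1 and Axin2 changed more in carcinomas, and Afp, Wif1 and Cyp1a2 lie near an axis.

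At the threshold, Ctss and Washc4 (adenoma adjusted p = 0.0499 each) were just inside, and Camsap2 and Ephx3 (adenoma adjusted p = 0.0502 each) were just outside. The shared call of Ctss was lost without untreated arrays 3 and 4.

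Among shared genes whose tumour arrays did not overlap the liver arrays, the leading ones were ranked by the smaller of their tumour effects. Nupr1, a small stress-induced nuclear protein, came first. It read 10.03, 10.30, 9.91, 10.41 and 10.33 in carcinomas and 9.95, 11.53, 10.48, 12.22 and 9.43 in adenomas, against 4.96, 5.07, 5.48, 5.22 and 4.99 in untreated livers and 5.52, 5.04, 5.08, 5.15 and 5.38 in phenobarbital livers. The lowest tumour lay almost 4 log2 units above the highest liver. Its effects were 5.05 in carcinomas and 5.49 in adenomas (SE 0.35 each), a 38.6-fold average rise (limma adjusted p = 6.5e-13), and their difference was -0.44 (95% interval -1.46 to 0.59).

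Psat1, an enzyme of serine synthesis, and Rragd, a small GTPase that brings mTORC1 to the lysosome, rose by similar amounts in both types. Psat1 read 8.99, 9.26, 8.21, 9.19 and 9.20 in carcinomas and 8.29, 8.88, 9.46, 10.61 and 8.07 in adenomas, while the 10 livers lay between 4.19 and 5.12. Its effects were 4.21 and 4.48 (SE 0.34 each), with a difference of -0.27 (95% interval -1.29 to 0.74). Rragd had effects of 4.16 in carcinomas and 4.32 in adenomas (SE 0.35 each, difference interval -1.20 to 0.87). Further probe sets of Rragd had average effects of -0.04 and 0.41 and no carcinoma call, so its rise rested on 1 probe set. Col8a1, a collagen chain of vessel and basement matrices, was the only one of the 10 leading rises whose effect was larger in adenomas by the test of the difference (3.51 in carcinomas, 4.67 in adenomas, adjusted p of the difference 0.033).

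Of the other leading rises, 4 were several times larger in carcinomas. Plat, tissue plasminogen activator, had effects of 7.59 and 4.86, and another probe set 1.70 and 0.47, without an adenoma call. Cpe, carboxypeptidase E of secretory granules, had 8.82 and 4.52, with adenoma values of 11.53, 5.86, 10.47, 7.85 and 8.84 that spread over more than 5 log2 units, and its other probe set averaged -0.79. Bex1, a small protein of neuronal and fetal tissues, had 10.29 and 3.54, and Sbspon, a secreted matrix protein, 7.91 and 3.55. For these 4 genes the difference between the types passed the test (adjusted p of 0.0011, 0.00097, 1.6e-07 and 0.00011). Kif26b, a kinesin-like protein, and Reep1, which shapes the endoplasmic reticulum, completed the 10, with effects of 4.60 and 3.41 and of 4.75 and 3.31. Limma's test of the difference passed for Reep1 (adjusted p = 0.017) and not for Kif26b. Another probe set of Reep1 had effects of 0.54 and 0.06, without an adenoma call. Scd2, described below with the fetal genes, had a larger smaller effect than these last genes but overlapped between tumours and livers.

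**Figure D3:**
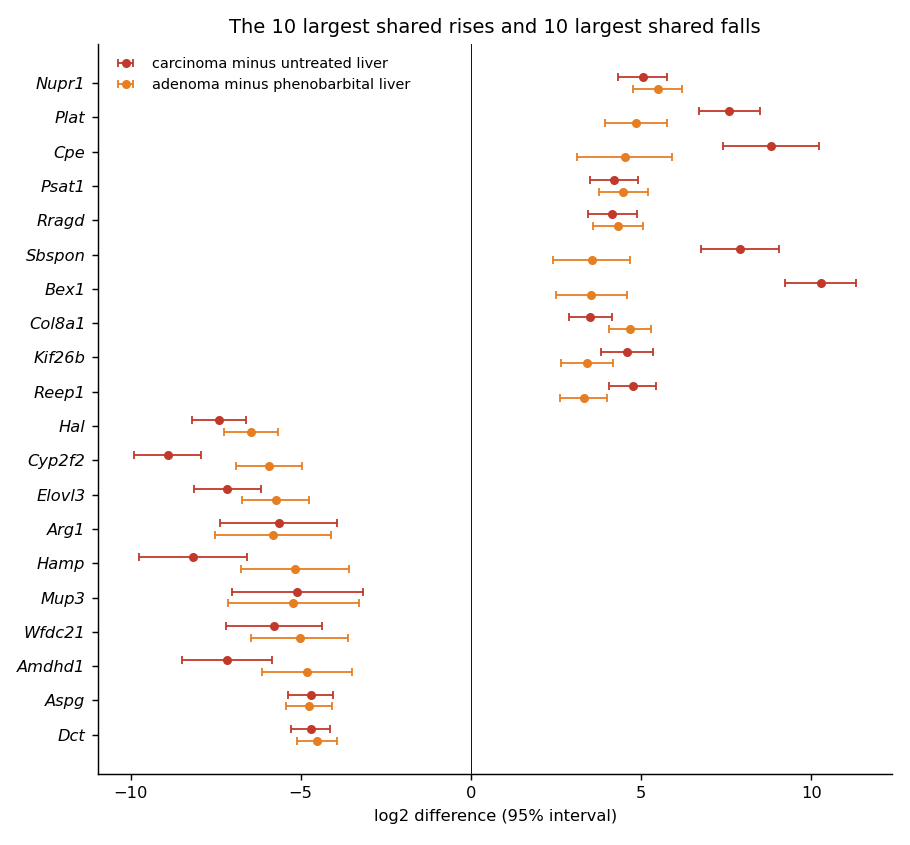
Effects with 95% intervals (log2 difference, horizontal axis) of the 10 shared rises and 10 shared falls with the largest smaller effect among genes without overlap between tumour and liver arrays; red points are carcinoma minus untreated liver and orange points adenoma minus phenobarbital liver. Every interval lies clear of 0, which follows from choosing genes with a call in both types. The points of Nupr1, Psat1, Rragd, Arg1, Mup3, Aspg and Dct nearly coincide.

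Nupr1 and Psat1 belong to the integrated stress response, in which ATF4 binds sites that combine parts of a C/EBP site and of an ATF site. Atf3, a stress-induced member of the ATF family, was also a shared rise, with effects of 3.49 in carcinomas and 2.75 in adenomas. The promoters of Nupr1 and Atf3 each held 1 match to TGATGNAA on either strand, and are printed to show it (RefSeq, GRCm38.p6, from 250 bases before to 50 after the gene start, 5′ to 3′ on the gene's strand). The window of Nupr1 is chr7:126625421-126625720 on the minus strand and that of Atf3 chr1:191183284-191183583 on the minus strand. Capitals mark the match, which begins at position -110 from the gene start in both.
Nupr1: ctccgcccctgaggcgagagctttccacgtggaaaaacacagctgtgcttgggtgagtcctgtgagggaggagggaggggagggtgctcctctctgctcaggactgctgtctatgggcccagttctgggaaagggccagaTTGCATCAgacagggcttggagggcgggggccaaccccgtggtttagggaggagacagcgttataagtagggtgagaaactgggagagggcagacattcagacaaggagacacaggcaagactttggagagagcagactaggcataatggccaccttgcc
Atf3: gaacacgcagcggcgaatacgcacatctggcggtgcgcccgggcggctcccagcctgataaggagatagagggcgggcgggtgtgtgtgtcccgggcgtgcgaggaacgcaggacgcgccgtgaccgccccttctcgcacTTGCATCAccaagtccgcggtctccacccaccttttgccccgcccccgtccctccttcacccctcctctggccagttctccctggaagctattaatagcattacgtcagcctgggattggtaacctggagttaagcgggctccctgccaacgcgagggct

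Such a match is a description of letters, not a binding site. It was found in 3.97% of 32851 RefSeq promoter windows, in 3.24% of the 14452 tested genes with a window, in 3.26% of the shared rises and in 3.24% of the shared falls. Among the shared rises of the stress response list it was in 3 of the 5 with a window, Vldlr being the third with a match in 1 of its 2 windows, and the windows of Psat1 and Mthfd2 did not hold these letters. The list's 13 genes without a shared change also included 5 with a match, Chac1, Trib3, Slc7a11, Asns and Fgf21. A TCF/LEF motif (ATCAAAG or TTCAAAG, either strand) was in 8.08% of the tested genes, in 7.17% of the shared rises, in 8.36% of the shared falls and in 2 of the 10 Wnt target genes among the shared rises that had a window.

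Of 20 integrated stress response genes, 6 were shared rises (30%, against 8.47% of all genes) and 1 a shared fall. Beside Nupr1, Psat1 and Atf3 these were the lipoprotein receptor gene Vldlr (2.91 in carcinomas and 2.81 in adenomas), the amino acid transporter gene Slc7a5 (1.15 and 1.80) and Mthfd2 of mitochondrial folate metabolism (1.10 and 1.27), while Shmt2, another gene of that pathway, fell (-1.70 and -0.59), a call lost without adenoma array 4. Over the whole list 15 genes rose in adenomas, and in carcinomas the 6 shared rises were the only ones. Opposite directions were called in 3 genes. Asns, asparagine synthetase, had effects of -0.14 in carcinomas and 2.07 in adenomas, and Fgf21, a stress hormone of liver, -1.62 and 3.94. List members named here and below beyond 2 in each direction were chosen after their values were seen. Counts in the lists below stand against 8.47% shared rises and 7.43% shared falls over all genes. Carcinoma calls over all genes were 31.3% higher and 37.3% lower, and adenoma calls 13.1% and 10.8%.

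Wnt feedback and target genes rose. Of 38 measured, 17 were shared rises (over all genes 8.47%) and none a shared fall. On average 29 were higher and 3 lower (over all genes 30.4% and 34.3%), and the median average effect was 1.70, against -0.06 over all genes. Without untreated arrays 3 and 4 the count of shared rises was 14, and between 14 and 18 over all the arrays left out. Nkd1, which blocks Dishevelled, read 13.22, 13.30, 13.21, 13.21 and 13.46 in carcinomas and 10.22, 8.63, 9.63, 7.35 and 9.62 in adenomas, while the livers lay between 5.20 and 6.60. The 5 carcinomas thus lay close together, while the adenomas were spread widely. Its effects were 7.39 and 3.04 (SE 0.39 each, limma adjusted p of the difference 2e-06).

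Feedback genes that act at the cell surface rose in both types too. Notum, an enzyme that strips the lipid from Wnt proteins, had effects of 4.57 in carcinomas and 1.45 in adenomas, and the ubiquitin ligase genes Znrf3 and Rnf43, which remove Wnt receptors, had carcinoma effects of 3.11 and 3.0 and adenoma effects of 1.41 and 1.12. Sp5, a transcription factor induced by Wnt, had 5.59 and 2.04, the cell cycle gene Ccnd1 3.78 and 1.98, and Myc 2.12 and 1.23. In 12 of the 17 shared genes the effects differed by the test. Nt5e, an ectonucleotidase, and Tbx3, a transcription factor, were among those where no difference was called, with effects of 2.57 and 2.25 (interval of the difference -0.26 to 0.89) and of 1.30 and 1.35 (interval -1.0 to 0.89). Another probe set had a carcinoma effect of -0.34 for Nt5e (adjusted p = 0.00096) and of -0.29 for Tbx3 (adjusted p = 0.026). With the mean of its 5 probe sets Tbx3 had an adenoma adjusted p of 0.051.

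Lgr5, the R-spondin receptor of Wnt-responsive cells, read 9.14, 8.62, 7.65, 10.71 and 8.71 in carcinomas and 9.54, 8.22, 8.70, 8.60 and 9.42 in adenomas, against 8.04, 8.05, 6.78, 6.90 and 7.68 in untreated livers and 7.25, 6.94, 6.89, 7.46 and 7.38 in phenobarbital livers. Carcinoma array 3 lay below 3 of the untreated livers. Its effects of 1.48 and 1.71 passed (SE 0.41 each, limma adjusted p = 0.0038 and 0.0049), and the shared call of Lgr5 was lost without untreated arrays 3 and 4. Wif1, a secreted Wnt inhibitor, was not shared although its average effect of 5.85 passed. It read 13.74, 13.74, 13.69, 13.70 and 13.78 in carcinomas and 6.98, 3.26, 7.12, 3.60 and 3.23 in adenomas, while the livers lay between 3.13 and 3.67. Adenoma arrays 1 and 3 were therefore above the livers and the other 3 adenomas among them.

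Other Wnt targets rose in carcinomas without a call in adenomas, among them Lef1 (4.37 and 0.17), Apcdd1 (7.69 and 0.28) and Dkk2 (6.26 and 0.48). In the destruction complex list, 4 of 11 genes were shared rises (over all genes 8.47%), among them Axin1 (0.61 and 0.55) and the casein kinase gene Csnk1a1 (1.96 and 0.45). Shared falls numbered 2 (over all genes 7.43%), Btrc and Ctnnbip1. For Axin1 and Btrc, another probe set had a carcinoma effect of the opposite sign (-0.29 with an adjusted p of 0.0077, and 0.67 with one of 6.2e-05). Without untreated arrays 3 and 4 there were 3 rises. The count of falls was 1 without untreated arrays 3 and 4 and without any one of adenoma arrays 1, 2, 3 and 5 or phenobarbital arrays 1, 2 and 3. The beta-catenin gene, Ctnnb1, had an effect of 1.89 in carcinomas (SE 0.11, adjusted p = 1.7e-11) and of 0.13 in adenomas (adjusted p = 0.49).

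Division genes formed the most uniform group. Of 29 cell cycle and mitosis genes, 23 were shared rises (79.3%) and none a fall, and only 1 of the 23 differed in size between the tumour types. The median effect was 1.76 in carcinomas and 1.52 in adenomas. Top2a, a DNA topoisomerase of dividing cells, had effects of 3.72 and 2.63, Birc5, which encodes survivin, 3.02 and 2.64, Ube2c, a ubiquitin-conjugating enzyme of mitotic exit, 2.68 and 2.97, and Cdk1, the mitotic kinase, 2.16 and 1.88. The other 2 probe sets of Top2a had average effects of -0.21 and 0.31 and no adenoma call. The number of shared rises lay between 22 and 25 when arrays were left out, and at 24 without untreated arrays 3 and 4.

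Of 29 DNA replication genes, 16 were shared rises (55.2%) and 1 a shared fall, with 14 rises without untreated arrays 3 and 4. Rrm1 and Fen1, among the rises, each had a further probe set shared in the opposite direction. Mcm6 of the replicative helicase had effects of 2.58 and 2.05, the replication licensing gene Cdt1 1.68 and 2.13, and Uhrf1, which keeps DNA methylation through replication, 2.83 and 2.31. Mcm10 went the other way. It read 7.05, 6.56, 7.63, 6.71 and 6.70 in carcinomas and 8.42, 9.47, 8.48, 7.05 and 8.18 in adenomas, against 11.09, 11.19, 10.78, 10.48 and 11.19 in untreated livers and 10.54, 10.47, 10.19, 10.99 and 10.31 in phenobarbital livers. The groups did not overlap, 1 of its other 2 probe sets was a shared fall (-1.73 and -0.61), and the third had effects of 0.12 and -0.22.

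The p53 target list moved both ways, with 5 of 16 genes shared rises and 2 shared falls (over all genes 8.47% and 7.43%). Cdkn1a, the cell cycle inhibitor p21, rose by 4.48 in carcinomas and 2.38 in adenomas, and Phlda3, an inhibitor of Akt, by 3.39 and 1.26. The death genes Bbc3 (-0.73 and -0.47) and Ei24 (-1.22 and -0.71) fell. There were 3 shared falls without untreated arrays 3 and 4. Without adenoma array 3 there were 3 shared rises, and the count of falls was 1 without any one of adenoma arrays 1, 4 and 5 or phenobarbital arrays 2 and 5.

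Some glycolysis and protein synthesis genes were shared rises. Of 16 glycolysis genes, 6 were shared rises (37.5%) and none a fall, with median effects of 1.81 in carcinomas and 0.16 in adenomas over the list. Pkm, the pyruvate kinase of dividing cells, rose by 5.88 and 1.71 (limma adjusted p of the difference 1.1e-11), Hk2, a hexokinase that normal hepatocytes hold at a low level, by 4.04 and 1.11, and Pfkfb3, which drives phosphofructokinase, by 2.53 and 1.79, though another probe set of Pfkfb3 had a carcinoma effect of -0.40 (adjusted p = 0.018). Of 16 cytosolic ribosomal protein genes, 7 were shared rises (43.8%), Rps19 by 1.22 and 0.51 and Rpl8 by 0.94 and 0.52, and all 7 changed more in carcinomas. There were 6 without untreated arrays 3 and 4, and Rps3, 1 of the 7, had a further probe set shared in the opposite direction. Rps16 fell in carcinomas (-0.57 and -0.13), and Rps24 was called in opposite directions (2.54 and -0.49). Ribosome biogenesis genes included 7 shared rises of 22, such as the nucleolar genes Nop58 (1.15 and 0.95) and Ncl (1.35 and 0.90), and 1 fall, Utp20, with 2 falls without adenoma array 1.

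Fetal liver and tumour marker genes rose in part. Of 30, 9 were shared rises (30%; 7 without untreated arrays 3 and 4) and none a fall, and 18 rose in adenomas against 12 in carcinomas. Scd2, a fatty acid desaturase of fetal liver, had effects of 3.47 in carcinomas and 4.50 in adenomas, Anxa2, a membrane-binding protein, 4.13 and 2.93, Vil1, which encodes villin, 2.98 and 3.37, and the calcium-binding S100a6 8.17 and 2.72. Gpc3, a cell-surface proteoglycan used as a marker of liver cancer, read 6.27, 7.42, 6.35, 6.82 and 7.21 in carcinomas and 4.97, 7.62, 8.54, 9.98 and 8.50 in adenomas, while the livers lay between 4.92 and 5.86. Adenoma array 1 was the tumour among the livers, and the shared call of Gpc3 was lost without untreated arrays 3 and 4 and without carcinoma array 2. Afp, which encodes alpha-fetoprotein, was high in adenomas only, with effects of 0.41 (adjusted p = 0.47) and 5.36 (adjusted p = 2.2e-07) and a difference of -4.94 (adjusted p = 7.1e-06).

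Periportal genes fell. Of 27 measured, 17 were shared falls (63%, against 7.43% of all genes) and none a rise, and 16 did not overlap between tumours and livers (over all genes, the tumours lay below in 3.78%). Hal, which breaks down histidine, read 3.78, 3.58, 5.04, 5.92 and 3.80 in carcinomas and 3.99, 4.2, 5.67, 5.24 and 5.32 in adenomas, against 11.60, 11.65, 11.83, 12.46 and 11.53 in untreated livers and 11.35, 11.31, 11.21, 11.45 and 11.45 in phenobarbital livers. Its effects of -7.39 and -6.47 (SE 0.38 each, a 122-fold average fall, limma adjusted p = 5.8e-14) had a difference of -0.92 (95% interval -2.04 to 0.20). Arg1, the arginase that ends the urea cycle, read 10.38, 5.56, 10.09, 10.01 and 6.60 in carcinomas and 6.71, 6.47, 10.23, 9.85 and 8.0 in adenomas, while the livers lay between 14.01 and 14.35. Tumours of either type thus fell into a range of almost 5 log2 units, and the effects were -5.65 and -5.81 (SE 0.82 each, difference interval -2.26 to 2.58).

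The urea cycle and amino acid catabolism list, which overlaps the periportal one, held 18 shared falls among 28 genes (64.3%) and no rise. Every gene of the list fell in carcinomas, with a median effect of -6.0, and the median in adenomas was -1.19. Cps1, the first enzyme of the urea cycle, had effects of -7.04 and -4.12, Otc, the next one, -7.31 and -2.38, and Ass1, a later one, only -1.92 and -1.42. In histidine breakdown, Uroc1 (-6.06 and -3.45), Amdhd1 (-7.17 and -4.83) and Ftcd (-6.47 and -3.62) fell with Hal. Aspg, an asparaginase, read 6.55, 6.44, 6.35, 6.94 and 5.55 in carcinomas and 5.78, 5.78, 6.18, 8.05 and 6.21 in adenomas, while the livers lay between 10.80 and 11.34, and its effects of -4.70 and -4.76 differed by 0.06 (95% interval -0.89 to 1.00).

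Pericentral genes did not move as a group. Of 24, 7 were shared rises and none a fall, but 17 fell in carcinomas, 12 rose in adenomas, and 5 were called in opposite directions. Over all genes these shares were 8.47%, 7.43%, 37.3%, 13.1% and 3.08%. The shared rises were the Wnt-induced Axin2, Lgr5, Tbx3, Sp5, Nt5e, the transporter gene Slc1a4 (1.58 and 2.94) and Glul, and without untreated arrays 3 and 4 there were 5. Glul, the glutamine synthetase gene, read 13.49, 13.35, 13.11, 13.81 and 13.46 in carcinomas and 14.36, 14.36, 14.27, 14.34 and 14.32 in adenomas, against 13.26, 13.37, 12.39, 12.25 and 13.13 in untreated livers and 12.97, 13.18, 13.07, 13.23 and 12.99 in phenobarbital livers. All adenomas lay above all livers, while carcinomas overlapped the untreated livers, and the shared call of Glul was lost without untreated arrays 3 and 4. The pericentral P450 genes Cyp2e1 and Cyp1a2 fell by 3.22 and 5.14 on the log2 scale in carcinomas and had effects of 0.03 and 0.01 in adenomas.

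**Figure D4:**
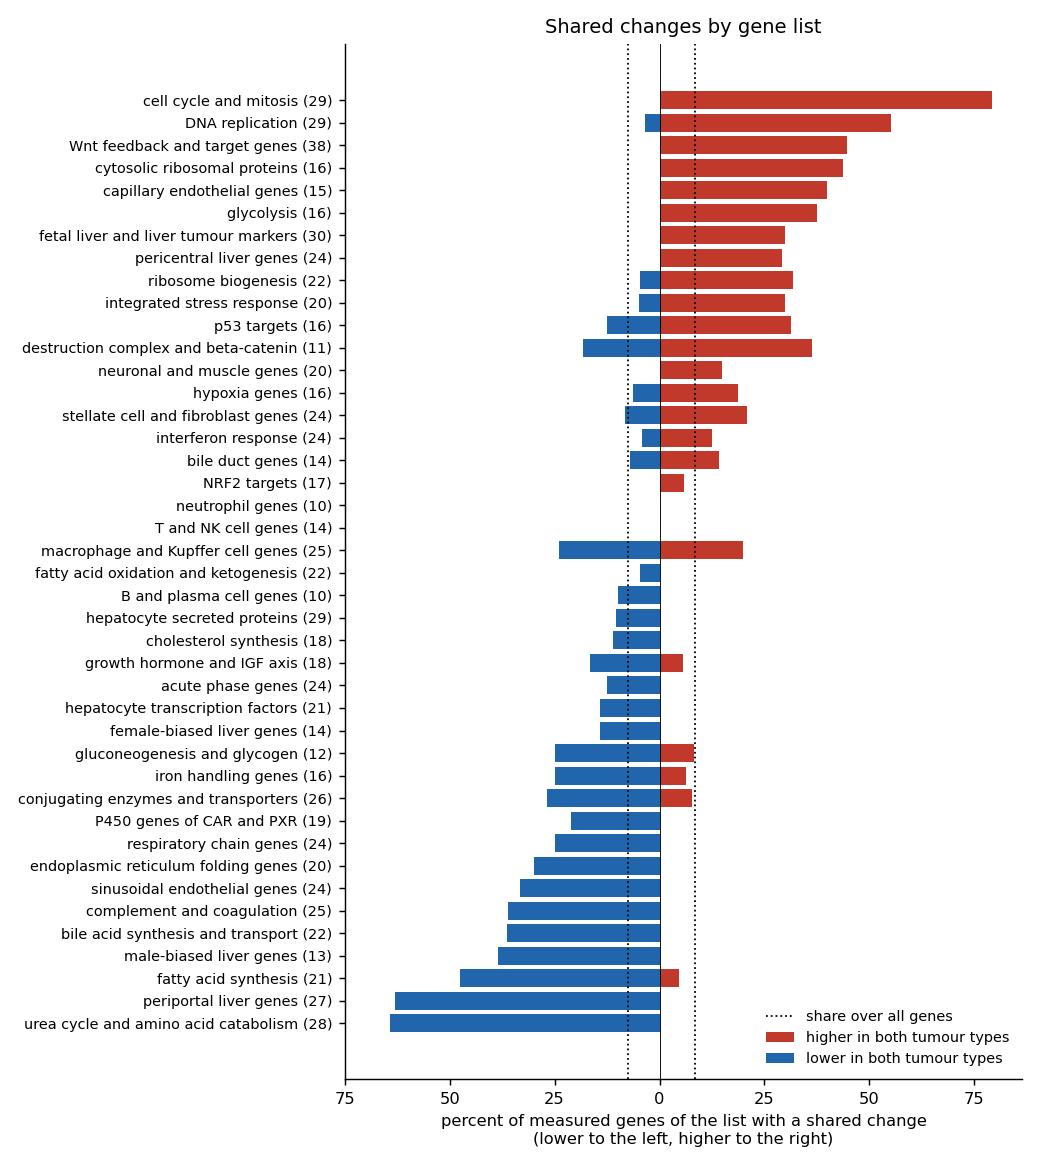
Share of each list's measured genes (number in brackets) that were shared rises, drawn to the right, or shared falls, drawn to the left, for the lists with at least 10 measured genes; dotted lines mark the shares over all genes, 8.47% and 7.43%. Cell cycle and DNA replication lists reach farthest right, and urea cycle and periportal lists farthest left.

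Lipid and bile acid genes fell in part. Of 21 fatty acid synthesis genes, 10 were shared falls (47.6%; 9 without untreated arrays 3 and 4) and 1, Scd2, a shared rise. Srebf1, the transcription factor that drives lipogenesis, had effects of -1.62 in carcinomas and -1.85 in adenomas (interval of the difference -0.18 to 0.63), Thrsp, a lipogenic protein of liver and fat, -6.22 and -3.17, Acly, which makes cytosolic acetyl-CoA, -0.76 and -1.61, and Fasn, fatty acid synthase, -2.15 and -0.71. Of 22 bile acid genes, 8 were shared falls (36.4%; 7 without untreated arrays 3 and 4), among them the sterol hydroxylase gene Cyp8b1 (-6.37 and -2.87), the bile acid uptake transporter gene Slc10a1 (-6.87 and -2.85) and Nr1h4, which encodes the bile acid receptor FXR (-4.98 and -1.02).

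Cholesterol synthesis and fatty acid oxidation gave another picture. All 22 oxidation genes fell in carcinomas and 17 of 18 cholesterol genes did, yet only Etfa, an electron carrier of oxidation (-2.03 and -0.65), and the cholesterol genes Sc5d (-4.16 and -0.97) and Ebp (-3.24 and -0.62) were shared falls. Without adenoma array 1 the cholesterol list had 4 shared falls. Without any one of adenoma arrays 1 and 3, carcinoma array 4 or untreated array 4 the oxidation list had 2. The median adenoma effects of these lists were 0.15 for cholesterol and 0.10 for oxidation genes. In gluconeogenesis, Pck1, the cytosolic PEP carboxykinase, fell (-6.57 and -3.63) and Pck2, the mitochondrial form, rose (0.91 and 1.09).

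Secreted and hormone-related liver genes included large shared falls, though most of their lists changed in carcinomas. Over all genes, 7.43% were shared falls and 37.3% fell in carcinomas. All 25 complement and coagulation genes fell in carcinomas and 9 were shared falls (36%), with the membrane attack genes C9 (-6.55 and -3.92) and C8a (-5.71 and -2.89) leading. All 29 hepatocyte secreted protein genes fell in carcinomas and 3 were shared falls, Igf1 (-4.46 and -2.17), Itih1 and Igfals, and the median adenoma effect was -0.24. Alb, the albumin gene, had effects of -2.30 and -0.01. Of 24 acute phase genes 3 were shared falls, and of these Orm3, an orosomucoid, fell more in adenomas (-1.60 and -2.69, adjusted p of the difference 0.0018).

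The iron genes gave 4 shared falls among 16 (over all genes 7.43%), Hamp, Tfr2, Atoh8 and Slc39a14, and 1 rise, Slc11a2. Tfr2 (-4.86 and -0.88) senses transferrin, Slc39a14 (-1.54 and -1.22) imports metal ions, and Slc11a2 (0.50 and 0.75) is another importer, whose shared call was lost with quantile normalization. Another probe set of Slc11a2 was a shared rise too, but 2 further ones had carcinoma effects of -1.05 (adjusted p = 4.6e-07) and -0.69 (adjusted p = 0.00042), so its direction in carcinomas depends on the probe set. Male-biased liver genes gave 5 shared falls among 13 (38.5%), led by the elongase gene Elovl3. It read 6.02, 3.90, 6.39, 5.90 and 4.85 in carcinomas and 6.91, 5.14, 8.19, 5.73 and 7.05 in adenomas, while the livers lay between 11.93 and 13.03. Mup3, a major urinary protein, fell by similar amounts (-5.10 and -5.21), but its probe set can bind related Mup genes, so which member fell is uncertain. Dct, best known from pigment cells, fell in both types as well (-4.71 and -4.52).

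Drug metabolism genes fell in part. Of 19 P450 genes of CAR and PXR, 4 were shared falls (21.1%). Cyp2b10, the classical CAR target, read 5.46, 5.21, 5.77, 5.08 and 4.85 in carcinomas and 7.64, 13.22, 11.01, 12.46 and 9.24 in adenomas, against 6.56, 6.69, 7.74, 8.90 and 7.64 in untreated livers and 12.97 to 13.46 in phenobarbital livers. Adenoma array 2 lay within the range of the phenobarbital livers and array 1 more than 5 log2 units below them. The effects were -2.23 and -2.41 (SE 0.72 each), and the shared call of Cyp2b10 was lost without untreated arrays 3 and 4 and without adenoma array 5. Of 26 conjugating enzyme and transporter genes, 7 were shared falls, among them Ugt2b1 (-7.55 and -2.69) and the carboxylesterase gene Ces2a (-6.74 and -2.64). Shared rises numbered 2, the efflux pump genes Abcc4 (4.66 and 1.61) and Abcb1a (2.14 and 2.12). Mean levels of Abcc4 were close in carcinomas (11.52) and adenomas (11.86) and far apart in untreated (6.86) and phenobarbital livers (10.25). Its lowest tumour (10.36) lay below its highest liver (10.50), and adenoma array 5 read 13.99. NRF2 targets were split, with 1 shared rise of 17 and 6 genes called in opposite directions. Shared falls of that list numbered 0, but 2 without adenoma array 5 and 1 without carcinoma array 3 or 4 or phenobarbital array 4, and 1 at an unadjusted p under 0.05 in limma's test.

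Among 21 hepatocyte transcription factors, 15 fell in carcinomas and 3 were shared falls, or 4 without untreated arrays 3 and 4. Cebpa, which maintains the hepatocyte state, read 7.30, 5.40, 6.17, 6.39 and 5.75 in carcinomas and 9.60, 9.57, 9.13, 9.26 and 10.02 in adenomas, while the livers lay between 10.47 and 10.79. All tumours were below all livers, by 4.42 in carcinomas and by 1.09 in adenomas on the log2 scale (limma adjusted p of the difference 1e-07). Hnf4a fell by 3.87 on the log2 scale in carcinomas and had an adenoma effect of 0.03, and Nr1i3, which encodes CAR, had -3.82 and -0.85 (adenoma adjusted p = 0.081).

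**Figure D5:**
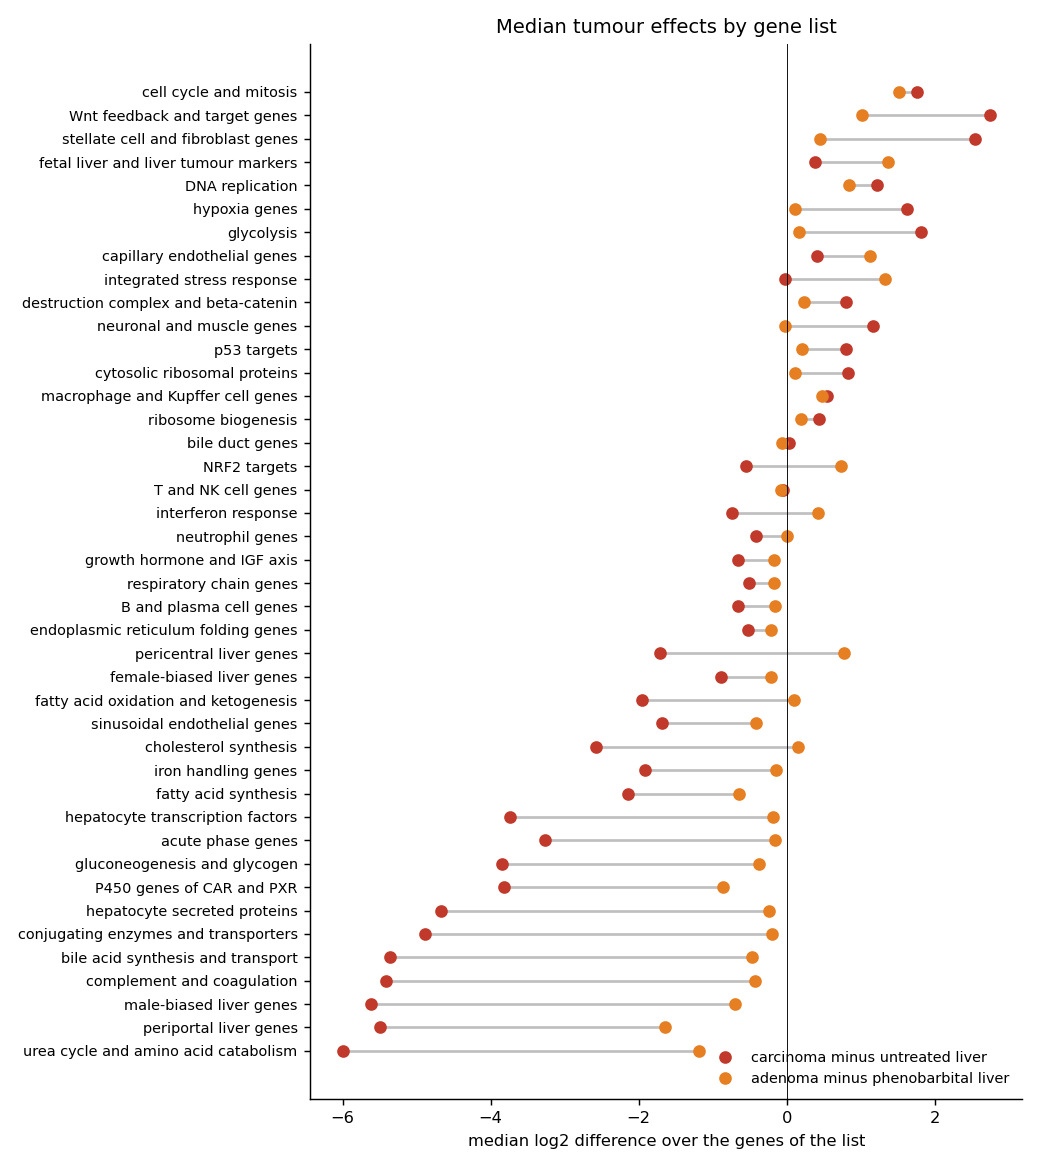
Median log2 difference over the genes of each list with at least 10 measured genes, in carcinomas minus untreated liver (red) and adenomas minus phenobarbital liver (orange), with lists ordered by their median average effect. The cell cycle list has nearly the same median in both types (1.76 and 1.52), while the urea cycle list lies at -6.0 and -1.19 and the pericentral list on both sides of 0.

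Some mitochondrial and folding genes fell by small amounts. Of 24 respiratory chain genes, 6 were shared falls (25%), 3 of them subunits of succinate dehydrogenase, Sdha (-0.89 and -0.49), Sdhb (-1.06 and -0.53) and Sdhd (-1.03 and -0.55). Of 20 endoplasmic reticulum folding genes, 6 were shared falls (30%; 5 without untreated arrays 3 and 4), such as the chaperone gene Hyou1 (-0.67 and -0.66) and Dnajc3 (-1.43 and -0.69). No respiratory chain or folding gene was a shared rise.

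Vessel genes gave shared changes in both directions. Capillary endothelial genes gave 6 shared rises among 15 (40%) and no fall, and sinusoidal endothelial genes 8 shared falls among 24 (33.3%) and no rise. Without untreated arrays 3 and 4 these counts were 7 and 9. Cd34, a surface protein of capillaries that liver sinusoids normally lack, read 8.44, 8.72, 8.16, 7.80 and 9.11 in carcinomas and 7.10, 9.01, 7.42, 8.08 and 8.22 in adenomas, against 4.33, 5.03, 5.77, 5.91 and 5.24 in untreated livers and 4.77, 4.78, 4.86, 5.47 and 4.91 in phenobarbital livers. The groups did not overlap, and the effects of 3.19 and 3.01 (SE 0.33 each) differed by 0.18 (95% interval -0.79 to 1.15). Aplnr, the apelin receptor (3.43 and 2.7), and the basement membrane genes Col4a1 (2.71 and 2.53) and Col4a2 (2.55 and 2.41) rose with it, as did Cd93 (0.76 and 2.38) and Podxl (2.11 and 1.12). Other members of the capillary list fell in carcinomas without a call in adenomas, namely Plvap (-1.23 and -0.24), Cldn5 (-1.19 and 0.62) and Sox17 (-0.83 and 0.09).

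Among the sinusoidal genes, the lectin gene Clec4g (-5.22 and -1.61), the nuclease gene Dnase1l3 (-2.91 and -1.34) and Wnt2, a Wnt ligand that sinusoidal cells make (-2.12 and -1.22), fell. The scavenger receptor genes Stab2 (-3.80 and -0.39) and Lyve1 (-2.79 and 0.34) fell in carcinomas without a call in adenomas. Other members rose in 1 tumour type only, Flt1 (3.51 and 0.35) and Bmp2 (1.16 and -1.08) in carcinomas and Pecam1 (-0.45 and 1.12) in adenomas. The summed level of the 24 sinusoidal genes (log2 of the summed linear values) lay at 11.9 to 13.6 in carcinomas and 13.1 to 13.2 in adenomas, against 13.3 to 13.6 in untreated and 13.5 to 13.7 in phenobarbital livers. For the 15 capillary genes it lay at 11.99 to 12.96 in carcinomas and 12.24 to 13.29 in adenomas, against 10.82 to 11.44 in untreated and 11.003 to 11.26 in phenobarbital livers, with no overlap.

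Macrophage genes included shared changes in both directions. Those that fell included markers of Kupffer cells, the resident macrophages of liver. They were Cd163, a haemoglobin scavenger receptor (-2.98 and -2.87), Timd4 (-1.96 and -2.36), Clec4f (-3.63 and -1.70), Vsig4 (-2.89 and -1.19) and Marco (-1.51 and -1.25). Cd163 read 5.26, 4.34, 5.08, 5.01 and 4.60 in carcinomas and 5.01, 4.62, 6.22, 6.19 and 5.27 in adenomas, while the livers lay between 7.46 and 8.73. With Ccr2, of which a further probe set was shared in the opposite direction, these were 6 shared falls among 25 genes (24%), and there were 3 without adenoma array 2 and without phenobarbital array 2.

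The list also held 5 shared rises, Cd14, Ctss, Fcer1g, Cx3cr1 and Trem2, and Csf1r (0.28 and 0.12) and Adgre1 (0.55 and 0.30) did not pass in either type. The count of rises ranged from 0 without phenobarbital array 1 or 4 to 11 without adenoma array 2, so it rested on single arrays. It was 1 to 3 without any one of adenoma arrays 1, 3, 4 and 5, carcinoma arrays 3 and 5, untreated arrays 1, 2, 3 and 5, phenobarbital arrays 2 and 5, or untreated arrays 3 and 4 together. The summed level of the list overlapped between all groups, at 13.4 to 14.9 in carcinomas and 13.2 to 14.9 in adenomas, against 13.1 to 14.1 in untreated and 13.8 to 14.1 in phenobarbital livers.

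Matrix genes of stellate cells and fibroblasts gave 5 shared rises among 24, Acta2, Vim, Col1a1, Col1a2 and Col3a1, and 2 shared falls, Reln and Ecm1. The collagen chains rose by 4.31 and 2.08 (Col1a2), 3.97 and 1.84 (Col3a1) and 3.20 and 1.56 (Col1a1). Acta2, smooth muscle actin, had effects of 7.20 and 2.04, and with the mean of its 3 probe sets the adenoma call was lost (0.71, adjusted p = 0.15). The summed level lay at 15.6 to 16.4 in carcinomas, above all other arrays, and at 12.7 to 14.3 in adenomas, against 13.2 to 14.03 in untreated and 13.5 to 13.7 in phenobarbital livers. Lrat, the retinol-storing enzyme of quiet stellate cells, was called in opposite directions (0.85 and -1.73). The count of falls was 1 without carcinoma array 2 or 3 and without untreated arrays 3 and 4.

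Lymphocyte and neutrophil lists moved little in common. None of 14 T and NK cell genes and none of 10 neutrophil genes was shared in limma's test, and at an unadjusted p under 0.05 for all 3 effects the counts were 1 and 0. The summed level of the T and NK list was 9.47 to 10.6 in carcinomas and 9.50 to 10.1 in adenomas, against 9.28 to 10.1 in untreated and 9.40 to 9.72 in phenobarbital livers. Of 10 B and plasma cell genes Ighm was a shared fall (-2.28 and -2.21), with 3 falls without adenoma array 4, and the list's summed level was 8.598 to 9.55 in carcinomas and 9.08 to 11.03 in adenomas, against 10.4 to 10.99 in untreated and 10.7 to 12.5 in phenobarbital livers. Neutrophil genes summed to 8.0 to 9.64 in carcinomas and 8.77 to 10.9 in adenomas, against 8.87 to 9.30 in untreated and 8.82 to 9.23 in phenobarbital livers. Bile duct genes summed to 12.4 to 13.5 in carcinomas and 9.93 to 11.3 in adenomas, against 9.47 to 10.1 in untreated and 9.43 to 9.64 in phenobarbital livers. Bicc1 (2.98 and 2.66) and Cd24a (5.73 and 2.33) were shared rises and Pkhd1 (-2.89 and -1.80) a shared fall. Bright genes weigh most in such a sum, and Cd24a alone read 11.36 to 12.88 in carcinomas. Krt7 (5.23 and -0.15) and Epcam (2.08 and -0.46) rose in carcinomas only. Krt19, Sox9, Sctr, Cldn4, Cldn7, Ehf and Mmp7 had no call in either type. The part of these cells in the shared changes was not tested.

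The remaining lists gave few shared changes (over all genes, 8.47% were shared rises and 7.43% shared falls). Interferon genes gave 3 shared rises of 24, Ifit2, Usp18 and Gbp2, and 1 shared fall, Stat2 (-1.27 and -0.74). The count of rises was 1 without any one of adenoma arrays 1, 3 and 4 or phenobarbital arrays 3 and 4. Other interferon genes fell in carcinomas only, among them Ifi27 (-3.12 and -0.04), Ifih1 (-2.56 and 0.06) and Oasl1 (-2.31 and 0.03). Oas1a (0.10 and 1.74), Mx1 (-0.06 and 1.67) and Cxcl10 (-0.79 and 1.58) rose in adenomas only. Oas2 (-0.77 and 0.51) and Psmb8 (-0.71 and 1.04) were called in opposite directions. Hypoxia genes gave 3 shared rises of 16, among them Ndrg1 (2.10 and 2.63) and P4ha2 (3.52 and 1.09), and 1 fall, Pdk1 (-0.75 and -1.28). Without untreated arrays 3 and 4 there were 4 rises. Of the other 3 probe sets of Pdk1, 1 was a shared fall, and the others had carcinoma effects of 0.94 (adjusted p = 0.0011) and 0.09. Neuronal and muscle genes gave 3 of 20, Bex1, Cpe and Nptx1. In the growth hormone and IGF list, Igf2r, a clearance receptor for IGF2, rose (0.84 and 1.66) and 3 of 18 genes fell, Igf1, Igfals and Cux2. Other probe sets of Cux2 had average effects of 1.52 and 0.20, so its direction depends on the probe set. Without adenoma array 1 the list had 2 shared rises and 5 shared falls, and without untreated arrays 3 and 4 it had 4 shared falls. Female-biased liver genes gave 2 falls of 14 (Cyp17a1 and Cux2), adipose tissue genes 1 of 7 and erythroid genes 1 of 5 (2 without carcinoma array 3).

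In 457 shared genes the 95% interval of the difference between the tumour effects lay within 0.5 log2 units of 0. They were 191 rises and 266 falls. For small changes this margin is not narrow beside the effect itself, so it does not show like size in both tumour types. The largest of these 457 changes were modest. Cdc42se1, a small effector of the GTPase Cdc42, rose by 1.51 in carcinomas and 1.43 in adenomas (interval of the difference -0.26 to 0.41), and Cd2ap, an adaptor to the actin skeleton, by 1.10 and 1.21 (interval -0.40 to 0.18). Ywhah, a 14-3-3 protein, rose by 1.12 and 1.02, and Impact, which restrains the stress kinase GCN2, by 0.96 and 1.01. Further probe sets of Impact had average effects of -0.03 and 0.14 and no call. Among the falls, Clstn3 had effects of -1.09 and -1.10 (interval -0.38 to 0.41), the mitochondrial co-chaperone gene Dnajc15 -0.96 and -1.0, and Dld, a subunit shared by mitochondrial dehydrogenase complexes, -0.83 and -0.71. Dld read 9.70, 9.72, 9.85, 9.54 and 9.43 in carcinomas and 9.39, 9.82, 9.66, 10.01 and 9.98 in adenomas, against 10.29 to 10.58 in untreated and 10.36 to 10.71 in phenobarbital livers, with no overlap. Another probe set of Dld had effects of -0.36 and -0.03, without an adenoma call.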

How the data were processed

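Per the labels' protocols, RNA from liver and tumour pieces was measured on Affymetrix 3' expression arrays. The authors deposited log2 expression values of 45037 probe sets on 20 arrays, and RMA is the tool named in the submitters' processing notes, without a version. RMA brings array distributions together, which hides any change that touches every gene alike, and it shrinks changes of dim genes. The number of arrays limits the precision.

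Symbols came from the platform annotation: 34945 probe sets had 1 symbol (34741 matched by Entrez number to RefSeq, GRCm38.p6), 932 several and 9160 none. Each of 18193 genes took its brightest probe set, after sets ending in _x_at were dropped where another existed.

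All 4 groups entered 1 limma fit (3.58.1, lmFit and eBayes, R 4.3.3) on the 34945 probe sets, with 16 residual and 3.64 prior degrees of freedom and no covariates. Every adjusted p is limma's, two-sided, with Benjamini-Hochberg adjustment over all probe sets of a comparison and a threshold of 0.05. The method was tested on simulated data. Promoter windows were searched in Python 3.11.15 and figures drawn with matplotlib 3.10.9.

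Named genes were the 10 shared rises and 10 shared falls with the largest smaller effect among genes without overlap between tumour and liver arrays, a panel of 23 genes, and up to 2 shared genes a direction in each of 44 lists. Added to them were 5 rises and 5 falls whose difference interval lay within 0.5 log2 units of 0. The members and lists were chosen with earlier results of these data known, and 797 of the genes on the lists were measured. Alternatives are given in the closing section.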

Additional observations from a re-analysis of the deposited data

Results flagged for a closer look

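Within a group of 5 arrays, single values of named genes lay far from the other 4 (gap to the nearest value over 0.71 of the range) in 33 of 512 groups examined, where chance gives about 1 in 20. In carcinoma arrays such log2 levels were Acta2 12.72 (array 3, lowest), Axin2 12.49 (array 4, highest), Bex1 13.65 (array 3, lowest), Ctnnb1 13.76 (array 1, lowest) and Hyou1 8.66 (array 1, lowest). Further ones were Mki67 10.93 (array 3, highest), Nop58 10.18 (array 2, highest), Psat1 8.21 (array 3, lowest), Tbx3 11.46 (array 4, highest) and Timd4 4.11 (array 4, highest). In adenoma arrays such log2 levels were Abcc4 13.99 (array 5, highest), Aspg 8.05 (array 4, highest), Btrc 5.86 (array 4, highest), Cyp2e1 14.24 (array 4, lowest) and Ei24 11.53 (array 1, highest). Further ones were Ifit2 8.34 (array 1, lowest), Plat 7.72 (array 2, lowest), Sbspon 5.32 (array 4, lowest) and Srebf1 9.65 (array 5, lowest). In untreated liver arrays such log2 levels were Cdc42se1 8.36 (array 3, highest), Dnajc15 10.76 (array 3, highest), Ebp 12.80 (array 4, highest), Hnf4a 12.77 (array 2, highest) and Ndrg1 7.03 (array 2, lowest). Further ones were Usp18 8.30 (array 4, highest). In phenobarbital liver arrays such log2 levels were Cd34 5.47 (array 4, highest), Clstn3 9.30 (array 1, lowest), Crp 12.98 (array 2, highest), Ctnnb1 12.21 (array 2, highest) and Nr1i3 9.997 (array 1, highest). Further ones were Rragd 5.62 (array 5, lowest), Timd4 5.91 (array 5, lowest) and Usp18 7.36 (array 3, lowest).

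The carcinoma and adenoma effects of 64 named genes differed by limma's test of the difference (adjusted p between 1.1e-11 and 0.044), given here as the carcinoma effect minus the adenoma effect on the log2 scale. Of genes without a shared change these were Cyp1a2 -5.16, Afp -4.94, Hnf4a -3.90, Cyp2e1 -3.25, Nr1i3 -2.96, Alb -2.29, Ctnnb1 1.76 and Wif1 9.04. Among shared rises, where a positive value means a larger rise in carcinomas, they were Bex1 6.74, Acta2 5.16, Sbspon 4.36, Nkd1 4.35, Cpe 4.31, Pkm 4.17, Cd24a 3.40, Notum 3.12 and Abcc4 3.05. Next came Plat 2.74, Axin2 2.54, Usp18 2.46, P4ha2 2.44, Col1a2 2.23, Phlda3 2.13, Cdkn1a 2.10, Ccnd1 1.80 and Reep1 1.44. The smaller ones were Apc 1.33, Rps19 0.71, Rpl8 0.42, Glul -0.67, Igf2r -0.81, Ifit2 -0.93 and Col8a1 -1.15. Among shared falls, where a negative value means a larger fall in carcinomas, they were Ugt2b1 -4.86, Crp -4.79, Cyp2c54 -4.29, Ces2a -4.10, Slc10a1 -4.03, Nr1h4 -3.96, Itih1 -3.75, Clec4g -3.60 and Cyp8b1 -3.50. Then followed Cebpa -3.33, Sc5d -3.18, Igfals -3.12, Thrsp -3.06, Hamp -2.99, Cyp2f2 -2.98, C8a -2.83, Ebp -2.62 and Amdhd1 -2.35. Smaller values were those of Igf1 -2.29, Mcm10 -1.84, Dnase1l3 -1.57, Slc37a4 -1.55, Etfa -1.37, Shmt2 -1.10, Pkhd1 -1.09, Dnajc3 -0.74 and Klf1 -0.58. The rest were Ei24 -0.51, Btrc -0.48, Sdhd -0.48 and Orm3 1.10. Tumour type and diet cannot be told apart in these differences.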

How the results depend on the processing

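Arrays carry no depth, and 5 per group limit the precision. With each array left out in turn, shared changes numbered 2442 to 3009, average calls 11393 to 11776, carcinoma calls 11912 to 12590, adenoma calls 3602 to 4615 and shared genes with unequal effects 1122 to 1459, and 83.4% to 96.6% of the shared genes were kept. Requiring a 2-fold change in both types left 760 shared genes, by construction. Dropping probe sets with a mean under 6 gave 8218 carcinoma calls against 12488, with fewer genes tested. The other settings gave 2447 (the larger p of the effects adjusted) to 3155 (array weights) shared genes, among them 2835 with arrays centred on their median, 2712 with quantile normalization, 2726 with the mean of a gene's probe sets, 2767 with each tumour type fitted with its own liver group and 2684 without untreated arrays 3 and 4, of which 2616 had been called before. Tumour and diet terms alone gave 10600 average calls. Replicate numbers gave no clear pairing of samples. Correlations of same-numbered arrays ran from -0.05 to 0.05, and 3 of 10 tumour arrays, carcinoma arrays 1, 2 and 4, correlated best with their own number. Such values cannot tell whether same-numbered samples came from 1 mouse. With the replicate number as a block, 2788 genes were shared, and calls numbered 11634, 12362 and 4185 for the average, carcinoma and adenoma effects and 1322 for unequal effects. Under these settings the average effects of named genes kept direction and call 3830 times, and 3 did not. Cux2 read 0.43 (adjusted p = 0.0041) with the mean of its 3 probe sets, against -0.44, and its other probe sets had average effects of 1.52 and 0.20. Btrc (-0.09) with the mean of its probe sets and Alb (adjusted p = 0.052) with tumour and diet terms lost the call. Of 120 named shared genes, 28 lost the shared call in some setting, and the cause was not tested. None of the 20 leading ones did, but they were picked from these same arrays for large effects without overlap. Their keeping the call therefore adds little.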
